A study of Mus musculus with 18 samples.

Results

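The 9 genes described here belong to MHC class I antigen presentation and the interferon response, and were followed through the growth of mouse intestinal organoids. They were chosen by symbol, as the rows of the deposited table named B2m, H2-K1, H2-D1, Tap1, Psmb8, Psmb9, Isg15, Irf7 and Bst2, which makes 9 of 24116 genes. Intestinal organoids are epithelial structures grown in a gel from stem and progenitor cells. They came from C57BL/6 mice of wild type genotype aged 8 weeks, as 3 organoid lines, with 3 libraries at each of days 0, 1, 2, 3, 4 and 5 and 30 wells pooled per library. After amplification in IntestiCult growth medium, the cultures received EGF, Noggin and R-spondin (ENR medium) at all times. To this were added, until day 3, 20% of medium conditioned by Wnt3a-producing cells and 10 µM of Y-27632, which inhibits ROCK. CHIR99021, which inhibits GSK3, was present at 3 µM until day 1 only. The day and the medium therefore change together and cannot be told apart. The labels' protocols name no interferon among the additions.

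MHC class I molecules show peptides from inside the cell to CD8 T cells. A heavy chain, in this strain H2-K1 or H2-D1, pairs with the light chain β2-microglobulin (B2m). The peptides are cut by the proteasome and pumped into the endoplasmic reticulum by the transporter Tap1 and Tap2. Psmb8 and Psmb9 are catalytic subunits of the immunoproteasome, which replace constitutive subunits and are classically raised by interferon γ. Isg15 is a ubiquitin-like modifier, Irf7 a transcription factor that drives type I interferon genes, and Bst2 (tetherin) a membrane protein that holds budding virus particles to the cell. All 3 are classical interferon-stimulated genes. In the gut, class I genes are also expressed by resting epithelium, and their transcription is driven by the coactivator Nlrc5 through a set of short promoter elements.

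The promoters of the light and heavy chains carry such elements. The sequences below are from RefSeq on build GRCm38.p6, read 5′ to 3′ on the strand of the gene, and positions count back from the annotated start. In each of the blocks shown first, the capitals mark TGACG and, after 20 bases, ATTGG, which is CCAAT on the other strand.
B2m (chr2:122147609-122147638, plus strand): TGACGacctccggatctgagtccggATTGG
H2-K1 (chr17:34000359-34000388, minus strand): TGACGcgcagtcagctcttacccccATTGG
H2-D1 (chr17:35262993-35263022, plus strand): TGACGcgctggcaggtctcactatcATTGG
The blocks start at position -78 in B2m, -41 in H2-K1 and -101 in H2-D1. RefSeq gives H2-K1 2 starts, with 34000347 and 34000333 as their first bases, and its positions here count from the former. From the latter, its block starts at -55. The RefSeq span of the H2-K1 gene reaches 34000619 at its 5′ end, so both H2-K1 blocks shown here lie within that span. H2-K1 and H2-D1 hold the same base at 23 of the 30 positions, and B2m shares 13 with H2-K1 and 12 with H2-D1, so that little beyond the capitals is common to all 3. The same pattern with the same spacing, on either strand, lies in the 250 bases before the start of 30 of 32851 promoters in the table (0.0913%), which belong to 26 of 27025 genes. Those 26 include 3 of the 9 members and, of 22 further class I genes with a promoter in the table, only H2-M3. The spacing was read from these 3 promoters, so the count is a description and not a test.

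A second block lies further upstream in both heavy chain genes, where the capitals mark the κB motif and GAANNGAAA on the other strand, a core that IRF factors bind. In B2m the order is reversed. The κB motif comes last, and before it stands the core of the interferon-stimulated response element (ISRE), spelled GAAA, any 2 bases and GAAA.
H2-K1 (chr17:34000429-34000458, minus strand): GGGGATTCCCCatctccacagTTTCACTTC
H2-D1 (chr17:35262923-35262952, plus strand): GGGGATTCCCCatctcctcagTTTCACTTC
B2m (chr2:122147548-122147570, plus strand): GAAACTGAAAatgGGAAAGTCCC
The H2-K1 and H2-D1 blocks are the same at 29 of 30 bases. Motifs were searched on both strands in the same 250 bases, and the κB motif was found in 7.25% of promoters, GAANNGAAA in 6.31% and the ISRE core in 2.98%. TGACG was found in 17.8%, CCAAT in 33.8% and both in 6.12%. The whole window of B2m shows how the elements follow each other.
B2m (chr2:122147437-122147686, plus strand): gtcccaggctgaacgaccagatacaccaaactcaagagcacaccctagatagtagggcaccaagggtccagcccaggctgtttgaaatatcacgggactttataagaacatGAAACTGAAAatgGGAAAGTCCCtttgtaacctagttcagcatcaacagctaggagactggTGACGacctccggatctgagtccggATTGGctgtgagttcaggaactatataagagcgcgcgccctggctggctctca

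The windows of Isg15 and Bst2 are shown for their copies of the ISRE core. In them, the capitals mark matches to any motif searched. Isg15 holds 3 overlapping copies of the ISRE core and 1 GAANNGAAA on the other strand, with no TGACG and no CCAAT. Bst2 holds 2 overlapping copies of the ISRE core, joined to a κB motif and to TTCNNNGAA, the core that STAT factors bind, which 7.02% of promoters hold.
Isg15 (chr4:156200819-156201068, minus strand): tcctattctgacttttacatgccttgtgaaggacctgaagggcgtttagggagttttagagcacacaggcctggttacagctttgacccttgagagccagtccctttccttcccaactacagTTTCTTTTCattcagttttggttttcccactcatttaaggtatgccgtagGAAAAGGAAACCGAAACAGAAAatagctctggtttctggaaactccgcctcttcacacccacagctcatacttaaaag
Bst2 (chr8:71537473-71537722, minus strand): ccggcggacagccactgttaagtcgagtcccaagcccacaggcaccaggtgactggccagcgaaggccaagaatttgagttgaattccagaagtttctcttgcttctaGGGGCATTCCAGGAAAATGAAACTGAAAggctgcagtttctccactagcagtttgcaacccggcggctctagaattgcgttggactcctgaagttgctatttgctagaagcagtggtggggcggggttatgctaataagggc
Irf7 held only TGACG and Psmb8 only TTCNNNGAA. The Irf7 window runs from 141266425 to 141266674 on the minus strand of chromosome 7. The RefSeq span of Irf7 reaches 141266499 at its 5′ end, so part of this window lies within that span. Tap1 and Psmb9 lie head to head on chromosome 17, their RefSeq starts 225 bases apart, and this stretch held TGACG and CCAAT but no motif of the IRF, κB or STAT kind. A match is a description of the letters and not evidence of binding, and no match says only that these letters are not in this window.

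The unit is RPKM, which scales the reads of a gene by its length and by the size of the library. Changes are on the log2(RPKM + 1) scale with their SE, which understates low genes, and adjusted p-values come from limma over 11111 tested genes, with a call at an adjusted p under 0.05. Depth worked back from the values was 43008272 to 53929907 reads a library, with 9953 to 10758 genes at 1 RPKM or more. All 8 epithelial markers were present in every library, with a summed level of 2046 to 7048 RPKM. Of 24 immune cell markers, 23 stayed below 1 RPKM in every library and 7 were at 0 in all, with a summed level of 0.560 to 2.28 RPKM. That sum was highest at day 4 (1.72 to 2.28 RPKM, against 1.08 to 1.20 at day 0 and 1.27 to 1.88 at day 5), and its part in the results was not tested. Mesenchymal and endothelial markers summed to 0.156 to 2.65 RPKM. Replicate 1 was the library without DNase treatment on every day, so replicate number 1 and the lack of DNase cannot be told apart. By the titles it came from mouse 1, which also gave the DNase-treated replicate 2 at days 1 and 2. P-values measure the spread between these libraries. In bulk samples such as these, fewer cells of a type and less RNA per cell cannot be told apart.

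One library stood apart in the interferon genes themselves. Of 54 interferon-stimulated genes beyond the members that were above 0 at day 0, 43 were highest in replicate 1 of that day (79.6%), against 43.8% of all genes above 0 at day 0. The same library was the highest of its day in 6 of the 9 members. Ifit1, an interferon-induced antiviral protein, was at 1.48 RPKM there and at 0.0629 and 0.272 in the other day 0 libraries, and the chemokine Cxcl10 was at 1.57 against 0.0682 and 0.287. Both were chosen after their values were seen. Pdgfrb, a mesenchymal marker, was at 2.14 RPKM there and at 0.351 and 0.277 in the other day 0 libraries. What part this plays in the day 0 values was not tested, and results that rest on day 0 are given also without that library where the call changes.

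Of the 9 members, 3 differed between days by limma's F test (B2m, H2-D1 and Tap1), where 25.3% of all tested genes did. Without replicate 1 of day 0, H2-D1 and Tap1 lost this call (F test, adjusted p = 0.0961 and 0.0645). H2-D1 also lost it when most other libraries were left out singly (adjusted p up to 0.187, without replicate 2 of day 0). Tap1 also lost it without replicate 3 of day 0 or replicate 2 of day 1 or day 4 (adjusted p = 0.0536 to 0.0587). The same held for Tap1 without replicate 1 or 2 of day 5 (adjusted p = 0.0534 and 0.0575). Both also lost it with median-of-ratios rescaling (adjusted p = 0.0668 and 0.0578), with quantile normalization (0.136 and 0.109) and in the DNase-treated libraries alone (0.0754 and 0.236). Day 5 differed from day 0 in 4 members, with B2m, H2-D1 and Irf7 higher and Tap1 lower, where 24.4% of all genes were called (11.4% higher and 13% lower). From day 0 to day 1, H2-D1 rose and Tap1 fell, 2 of 9 members against 18.6% of genes (9.54% higher and 9.05% lower). Day 5 differed from day 1 in 3 members (B2m and H2-K1 higher, Bst2 lower) against 27.8% of genes (11.8% higher and 16.1% lower). Days 4 and 5 together differed from days 2 and 3 in 2 members (B2m and H2-K1, both higher) against 16% of genes (6.47% higher and 9.56% lower). The libraries of the compared days did not overlap for 3 members between days 0 and 1 (41.2% of genes), 6 between days 0 and 5 (54.1%), 5 between days 1 and 5 (52.9%) and none between days 2 and 3 and days 4 and 5 (1.96%). With 9 members, such shares are near those of all genes and are no result about the group. Tests against day 0 or day 1 share those libraries. The plot of changes sets the 4 comparisons side by side.

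**Figure D1:**
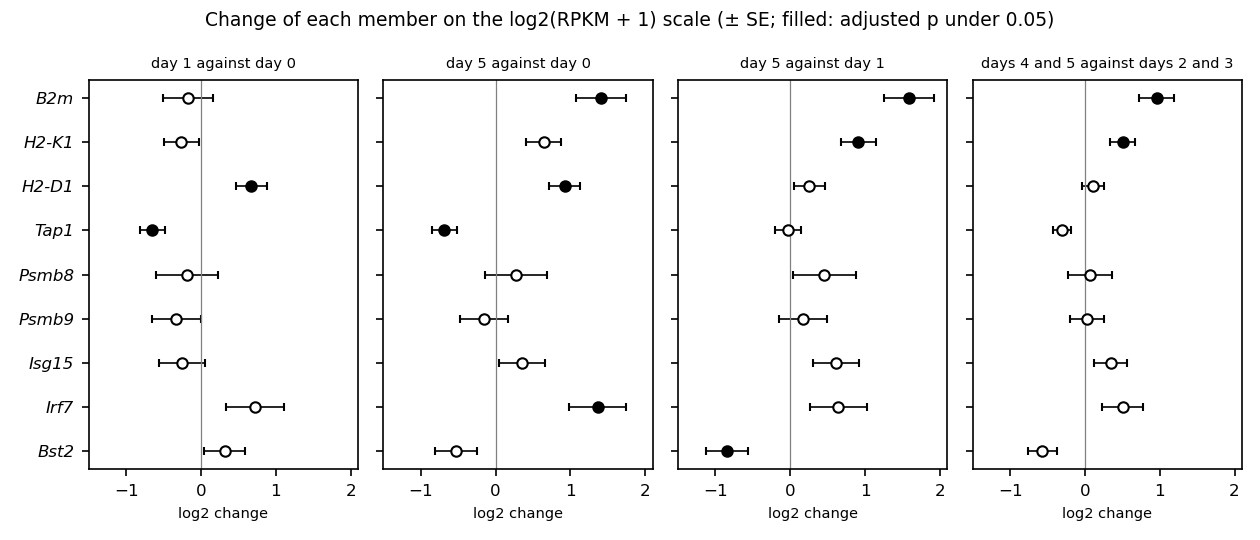
Change of each of the 9 members in 4 comparisons on the log2(RPKM + 1) scale, as points with SE bars from limma on 18 libraries; filled points have an adjusted p under 0.05. B2m lies furthest to the right at day 5 (1.41 ± 0.33 against day 0), and Tap1 lies to the left of 0 in every panel.

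The levels fell into separate ranks. B2m and H2-K1 held the first and second rank of the members at every day. H2-K1 led at days 0 and 1 (177 against 148 RPKM on day 0) and B2m from day 2 on (402 against 276 RPKM at day 5). Their libraries overlapped at days 1 to 4, so the order on those days does not exceed the spread, and did not overlap at days 0 and 5. H2-D1 was the third at every day and Bst2 the fourth, and Isg15 was the lowest of the 9 throughout, at day means of 0.358 to 1.10 RPKM. Tap1, Psmb8, Psmb9 and Irf7 lay between 1.59 and 6.70 RPKM and overlapped with each other at most days.

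B2m (Entrez 12010, chromosome 2, 122147687 to 122153082, within the span of Patl2) is the light chain of all classical and most nonclassical class I molecules. It was at 153, 152 and 140 RPKM in the day 0 libraries, at 136, 112 and 147 at day 1 and at 187, 187 and 135 at day 2. It was at 286, 120 and 175 at day 3, at 503, 277 and 185 at day 4 and at 515, 331 and 359 at day 5. The libraries of days 0 to 2 lay close together, those of days 3 and 4 spread widely with replicate 1 the highest, and all 3 day 5 libraries lay above every library of days 0, 1 and 2. The mean rose from 148 ± 7.46 RPKM (SD, n = 3) at day 0 to 402 ± 99.4 (SD, n = 3) at day 5, a log2 change of 1.41 ± 0.33 (limma, adjusted p = 0.0104). Against day 1 the change was 1.58 ± 0.33 (limma, adjusted p = 0.00527), which was called under every alternative. Days 4 and 5 exceeded days 2 and 3 by 0.96 ± 0.23 (limma, adjusted p = 0.0205). Without replicate 1 of day 5, the comparison with day 0 missed the threshold (1.21, limma, adjusted p = 0.0569). The call for days 4 and 5 was lost without replicate 3 of day 2, replicate 2 of day 3, replicate 1 of day 4 or replicate 1 of day 5 (adjusted p = 0.0501 to 0.0588) and with only those 4 days in the fit (adjusted p = 0.0651). These levels rest on 4248 to 23129 reads of B2m per library.

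H2-K1 (Entrez 14972, chromosome 17, 33996012 to 34000619) encodes the K heavy chain. It was at 161, 172 and 197 RPKM at day 0, at 127, 156 and 159 at day 1 and at 149, 177 and 159 at day 2. It was at 185, 163 and 162 at day 3, at 312, 206 and 125 at day 4 and at 296, 266 and 267 at day 5. All 3 day 5 libraries lay above those of days 0 to 3, while day 4 held both the highest and the lowest H2-K1 values of the series. H2-K1 rose from 147 ± 17.4 RPKM (SD, n = 3) at day 1 to 276 ± 17.0 (SD, n = 3) at day 5, a log2 change of 0.91 ± 0.23 (limma, adjusted p = 0.0133). Against day 0 the change was 0.64 ± 0.23 and missed the threshold (limma, adjusted p = 0.055), and it passed with only the days compared in the fit (adjusted p = 0.00926) and with day 4 replicate 3 left out (adjusted p = 0.00906). The rise from day 1 missed it without replicate 1 of day 1 (0.81, adjusted p = 0.0569). Days 4 and 5 exceeded days 2 and 3 by 0.50 ± 0.16 (limma, adjusted p = 0.0495), a call lost with the replicate number as a block (adjusted p = 0.051) and in most of the other alternatives (up to adjusted p = 0.212).

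H2-D1 (Entrez 14964, chromosome 17, 35263094 to 35267497) encodes the D heavy chain and, unlike H2-K1, was called higher at day 1 than at day 0. It was at 63.2, 50.8 and 71.6 RPKM at day 0 and at 82.1, 101 and 114 at day 1. It stayed between 71.5 and 134 RPKM from day 2 to day 4 and was at 133, 108 and 112 at day 5. Every day 1 and every day 5 library lay above all day 0 libraries. H2-D1 rose from 61.9 ± 10.5 to 98.98 ± 16.0 RPKM (SD, n = 3 each) in the first day, a log2 change of 0.67 ± 0.21 (limma, adjusted p = 0.034). By day 5 it had reached 118 ± 13.7 RPKM, 0.92 ± 0.21 above day 0 (limma, adjusted p = 0.00791), which was called under every alternative. The rise at day 1 was lost without replicate 2 of day 0 (0.54, adjusted p = 0.144), without replicate 3 of day 1 (0.56, adjusted p = 0.135), without replicate 2 of day 1 (adjusted p = 0.0909) and without replicate 1 of day 0 (adjusted p = 0.0606), with the mouse as a factor (0.58, adjusted p = 0.0655), with median-of-ratios rescaling (adjusted p = 0.0791) and with quantile normalization (0.47, adjusted p = 0.0927). H2-D1, H2-K1, H2-L and the H2-Q genes are close copies of each other, and how the authors counted reads that match several of them is not given in the sources used here, so the split between them is uncertain.

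**Figure D2:**
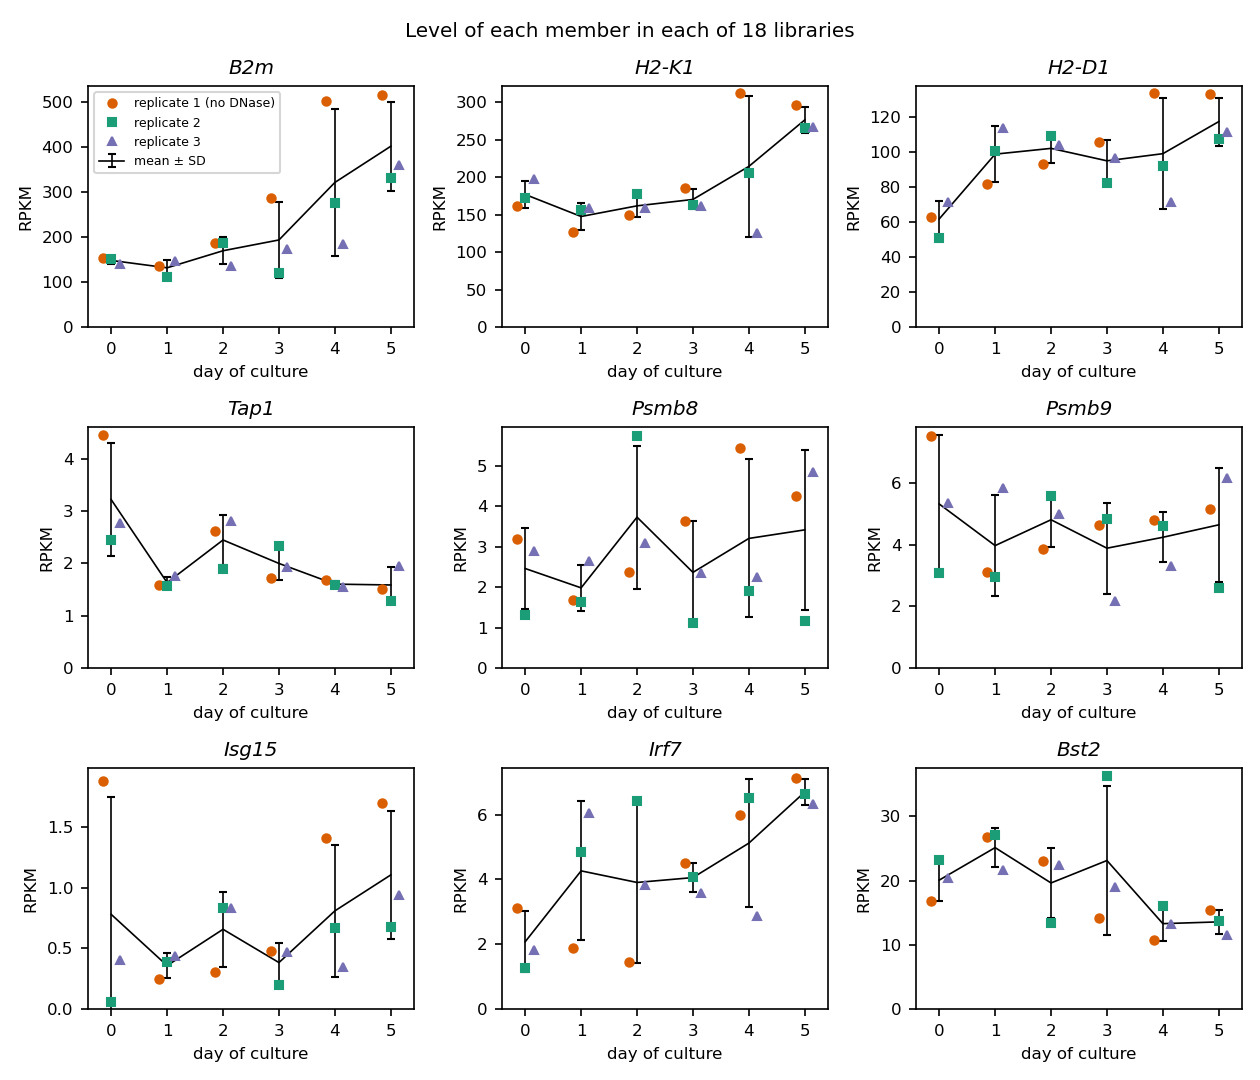
RPKM of each of the 9 members in the 18 libraries by day of culture, with a marker for each replicate and the mean with SD of 3 libraries in black. B2m and H2-K1 are highest at day 5 (means 402 and 276 RPKM), H2-D1 steps up between days 0 and 1, and Isg15 stays at or below 1.88 RPKM.

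The ratio of the heavy chains was taken within each library, so that the depth of the library cancels, and no comparison of it passed the correction for multiple tests. The ratio of H2-D1 to H2-K1 was 0.350 ± 0.0505 (SD, n = 3) at day 0 and 0.670 ± 0.0422 at day 1. It then took means of 0.634, 0.559 and 0.483 at days 2, 3 and 4 and of 0.425 ± 0.0232 at day 5. The ranges were 0.295 to 0.393 at day 0, 0.645 to 0.718 at day 1 and 0.406 to 0.451 at day 5, and no library of one of these days lay within the range of another. With 3 libraries against 3, an exact permutation test cannot go below p = 0.1, which each of these 3 comparisons reached (two-sided, adjusted p = 0.182 over 20 comparisons of ratios). Between days 4 and 5 and days 2 and 3, with 6 libraries each, the ratio was 0.454 against 0.596 (exact permutation test, two-sided, p = 0.00433, adjusted p = 0.0866). These ratios and their tests were chosen after the data had been seen.

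The light chain was also set against the heavy chains, and no comparison of this ratio passed the correction. B2m divided by the sum of H2-K1 and H2-D1 was 0.628 ± 0.0938 (SD, n = 3) at day 0 and 0.542 ± 0.107 at day 1, and 0.999 ± 0.113 at day 4 and 1.01 ± 0.167 at day 5. The lowest library of days 4 and 5 was at 0.885, and of days 0 to 3 only replicate 1 of day 3, at 0.982, lay above it. Over days 4 and 5 against days 2 and 3 the ratio was 1.01 against 0.681 (exact permutation test, two-sided, p = 0.0108, adjusted p = 0.108), which did not pass the correction. The plot of ratios shows both measures by library.

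**Figure D3:**
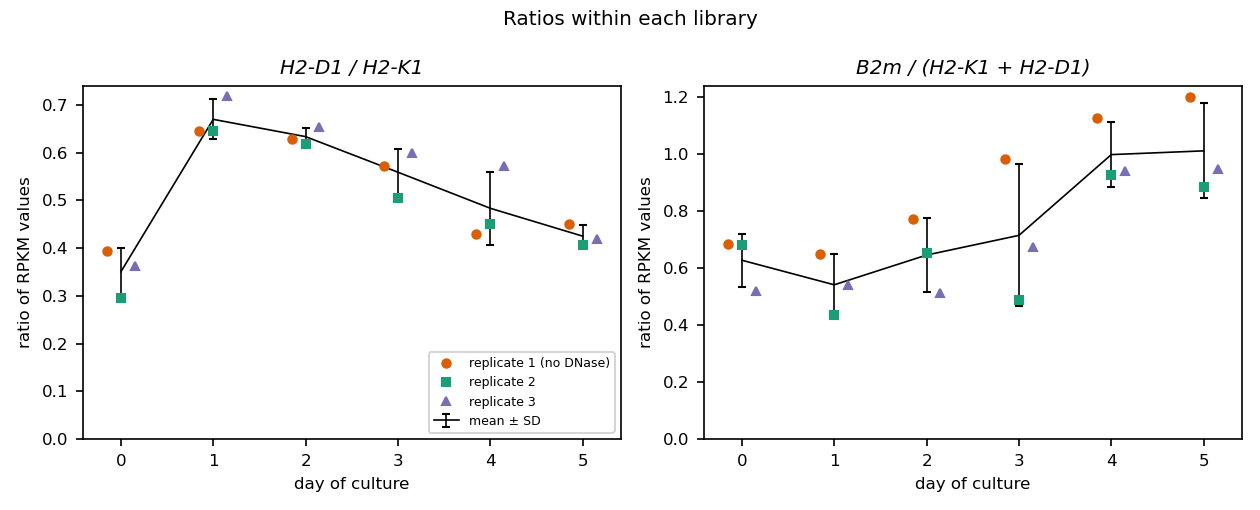
Ratios of RPKM values within each of the 18 libraries by day, for H2-D1 over H2-K1 (left) and B2m over the sum of H2-K1 and H2-D1 (right), with the mean and SD of 3 libraries in black. The left ratio is lowest at day 0 (0.350), highest at day 1 (0.670) and lower again at day 5 (0.425), and the right ratio is near 1 at days 4 and 5.

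The members for peptide supply are Tap1, Psmb8 and Psmb9, of which Tap1 fell and the others passed no threshold. Tap1 (Entrez 21354, chromosome 17, 34187556 to 34197225), a subunit of the peptide transporter, was at 4.45, 2.45 and 2.76 RPKM at day 0 and at 1.58, 1.56 and 1.75 at day 1. It was at 2.62, 1.90 and 2.82 at day 2, between 1.72 and 2.34 at day 3 and between 1.29 and 1.96 at days 4 and 5. No day 1 or day 5 library reached the lowest day 0 library. Tap1 fell by 0.65 ± 0.17 on the log2 scale from day 0 to day 1 (limma, adjusted p = 0.0149) and was 0.68 ± 0.17 lower at day 5 than at day 0 (limma, log2 change -0.68, adjusted p = 0.0123). Replicate 1 of day 0 was its highest library, and without it the changes were -0.45 (adjusted p = 0.0592) and -0.49 (adjusted p = 0.0439). In the DNase-treated libraries alone they were -0.44 (adjusted p = 0.129) and -0.47 (adjusted p = 0.109). The call at day 1 was also lost without replicate 2 of day 1 (adjusted p = 0.0503), and that at day 5 without replicate 1 or 2 of day 5 (adjusted p = 0.0502 and 0.0503). Tap2, the partner of Tap1, had means of 2.83 to 3.91 RPKM and passed in no comparison (day 5 against day 0: -0.14, limma, adjusted p = 0.668). The 2 subunits were therefore both expressed at low levels, with Tap1 beneath Tap2 in the mean of every day.

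Psmb8 (Entrez 16913, chromosome 17, 34198195 to 34201454) was at 3.18, 1.31 and 2.90 RPKM at day 0 and at 4.25, 1.16 and 4.84 at day 5. Psmb9 (Entrez 16912, chromosome 17, 34182030 to 34187330) was at 7.54, 3.09 and 5.35 RPKM at day 0 and at 5.17, 2.60 and 6.18 at day 5. The libraries of these days overlapped for both, with replicate 2 the lowest in each case. The changes from day 0 to day 5 were 0.27 ± 0.42 for Psmb8 and -0.16 ± 0.32 for Psmb9 (limma, adjusted p = 0.627 and 0.72), and neither gene passed in any comparison with days alone in the fit. With the mouse as a factor, Psmb8 was called higher at day 5 than at day 1 (0.79, limma, adjusted p = 0.0474).

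The constitutive subunits that Psmb8, Psmb9 and Psmb10 replace are Psmb5, Psmb6 and Psmb7. Psmb8 stood at 3.07% to 8.45% of Psmb5 in the day means, and Psmb9 at 2.43% to 5.05% of Psmb6. Psmb10, the other immunoproteasome subunit, stood at 118% of Psmb7 at day 0, 91.3% at day 1 and 192% at day 5, so it was expressed at a level like that of its counterpart while Psmb8 and Psmb9 were not. Psmb10 rose from 29.3 ± 1.62 RPKM (SD, n = 3) at day 0 to 46.6 ± 6.53 at day 5 (log2 change 0.64 ± 0.18, limma, adjusted p = 0.0217). This call was lost without replicate 1 or 2 of day 0 or replicate 1 or 3 of day 5, with adjusted p = 0.0575 to 0.0914. It was also lost in the DNase-treated libraries alone (limma, adjusted p = 0.0831) and with quantile normalization (adjusted p = 0.0552). The fall and rise of the Psmb10 ratio reached the smallest p that 3 against 3 allows (exact permutation test, p = 0.1, adjusted p = 0.182). Of 14 constitutive proteasome genes, 11 rose and none fell from day 0 to day 1 (median 0.59, against -0.00 over all genes), and 11 fell from day 1 to day 5 (median -0.55, against -0.15). Over all tested genes 9.54% rose and 9.05% fell in the first of these comparisons, and 11.8% rose and 16.1% fell in the second. Psmb5, for example, had means of 38.6, 64.8 and 42.1 RPKM at days 0, 1 and 5.

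**Figure D4:**
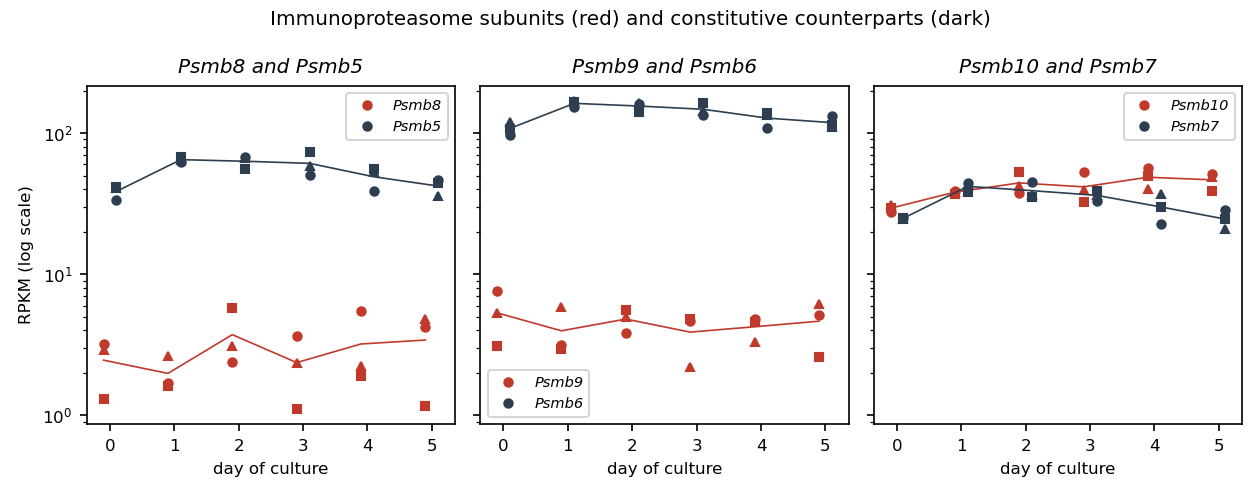
RPKM on a log axis, by library and day, of the immunoproteasome subunits Psmb8, Psmb9 and Psmb10 (red) and of the constitutive subunits Psmb5, Psmb6 and Psmb7 (dark); lines join the means of 3 libraries. Psmb8 and Psmb9 lie far below their counterparts on every day, while Psmb10 overlaps with Psmb7 at days 1 to 3 and lies above it at days 0, 4 and 5.

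The wider class I list held 31 genes of the table, of which 23 were tested. From day 0 to day 5, 11 rose and 1 fell, with a median of 0.43, where 11.4% of all tested genes rose and 13% fell, with a median of -0.17. The 11 include H2-L (1.01 ± 0.26, limma, adjusted p = 0.014) and H2-Q genes, which are close copies of each other and of H2-D1 and H2-K1. How reads that match several of them were counted is not given, so these calls may not be independent of each other. H2-Q2, a nonclassical heavy chain, rose from 10.1 ± 0.384 to 130 ± 45.7 RPKM (SD, n = 3 each), a log2 change of 3.50 ± 0.65 (limma, adjusted p = 0.00272). Its relative H2-Q1 rose by 2.64 ± 0.57 (limma, adjusted p = 0.00633) and H2-T23, the Qa-1 chain that NK cells read through NKG2A, by 1.47 ± 0.39 (limma, adjusted p = 0.0169). Fcgrt, the heavy chain of the neonatal Fc receptor and a partner of B2m that carries IgG across epithelium, rose by 2.29 ± 0.45 (limma, adjusted p = 0.00404), from 1.91 to 12.2 RPKM. H2-Q2 was at 10.5, 9.96 and 9.82 RPKM at day 0, at 197, 99.8 and 30.2 at day 4 and at 174, 83.2 and 133 at day 5, so its day 5 libraries lay far above all of day 0. Leaving out replicate 1 of day 5 reduced the 12 calls of this list to 4, with H2-T23 at an adjusted p of 0.0723, and the DNase-treated libraries alone gave 6. The share of all genes called in those fits is not given here.

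Other class I genes took other courses. H2-Q10 fell from 100.0 ± 21.9 RPKM (SD, n = 3) at day 0 to 30.4 ± 12.8 at day 1 (log2 change -1.74 ± 0.37, limma, adjusted p = 0.00446) and rose again by 1.83 ± 0.37 between days 1 and 5 (limma, adjusted p = 0.00425), to 105 ± 5.64 RPKM. H2-Q6 was the gene that fell from day 0 to day 5 (-0.82 ± 0.25, limma, adjusted p = 0.0291). Tapbp (tapasin), which holds class I molecules at the transporter, rose by 0.99 ± 0.25 (limma, adjusted p = 0.0145) from day 0 to day 5, and Psme1, a part of the proteasome activator PA28, by 0.62 ± 0.15 (limma, adjusted p = 0.0121). H2-T3, the chain of the thymus leukemia antigen of gut epithelium, had means of 20.0 RPKM at day 0 and 27.4 at day 5 and passed in no comparison (0.43, limma, adjusted p = 0.507). Hfe, which pairs with B2m and controls iron uptake, fell by 0.72 between days 2 and 3 and days 4 and 5 (limma, adjusted p = 0.0209). Without replicate 1 of day 5, Tapbp, Psme1 and H2-Q6 missed the threshold between days 0 and 5 (limma, adjusted p = 0.054, 0.0503 and 0.114), and H2-Q6 also missed it without replicate 3 of day 0 or replicate 2 of day 5 (adjusted p = 0.136 and 0.103). The list thus held genes that rose beside B2m and genes that did not.

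**Figure D5:**
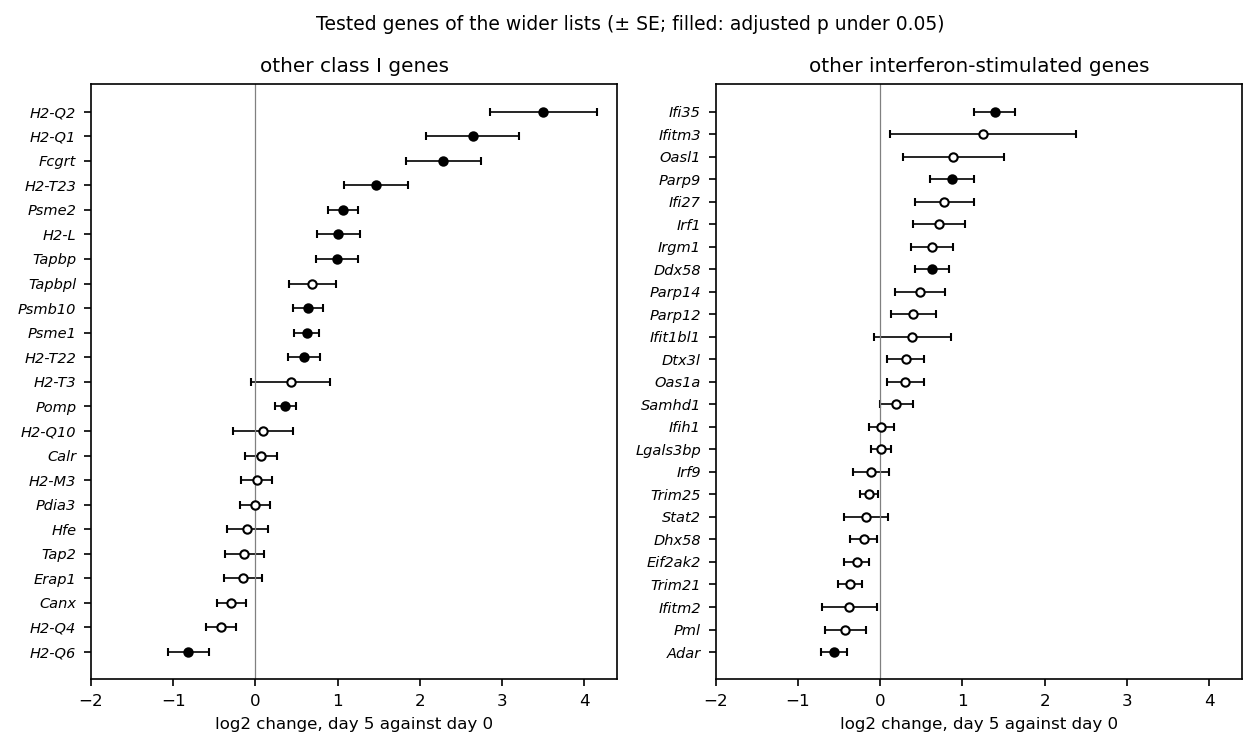
Change from day 0 to day 5 on the log2(RPKM + 1) scale, with SE from limma, of the 23 tested genes of the wider class I list (left) and of 25 of the 26 tested interferon-stimulated genes beyond the members (right); filled points have an adjusted p under 0.05. On the left 11 genes rose and 1 fell, and on the right 3 rose and 1 fell.

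The regulators named here were low or did not pass between days 0 and 5. Nlrc5, the class I coactivator, was at 0.331 RPKM in replicate 1 of day 0, at 0.0381 or less in every other library and at 0 in all 3 day 5 libraries, and it was too low to be tested. Ciita and Cd74, the coactivator and the invariant chain of MHC class II, had day means of at most 0.0243 and 0.127 RPKM. Of 10 class II genes, only H2-DMa, a peptide-loading chain, could be tested, at day means of 1.11 to 2.57 RPKM. Irf1, an activator of class I genes, was at 8.71 ± 4.91 RPKM (SD, n = 3) at day 0 and 14.0 ± 3.49 at day 5 (0.72, limma, adjusted p = 0.104). Stat2 and Irf9, which act downstream of type I interferon, had day means of 4.53 to 6.12 and 4.65 to 5.61 RPKM. From day 0 to day 5 they changed by -0.18 and -0.11 (limma, adjusted p = 0.624 and 0.727). Irf2, another IRF factor, was at 21.4 to 24.4 RPKM at day 0, at 13.3 to 16.4 at day 1 and at 25.1 to 28.9 at day 5. It was chosen after its values were seen.

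Irf7 (Entrez 54123, chromosome 7, 141263183 to 141266499) was the interferon member that rose. It was at 3.12, 1.28 and 1.83 RPKM at day 0, at 1.90, 4.84 and 6.06 at day 1 and at 1.47, 6.42 and 3.83 at day 2. It was at 4.50, 4.09 and 3.58 at day 3, at 6.00, 6.50 and 2.86 at day 4 and at 7.14, 6.63 and 6.32 at day 5. The day 5 libraries lay close together and above all those of days 0 and 1, while replicate 1 was far below the other replicates at days 1 and 2. Irf7 rose from 2.08 ± 0.945 to 6.70 ± 0.411 RPKM (SD, n = 3 each), a log2 change of 1.37 ± 0.38 (limma, adjusted p = 0.0207). The call was lost without replicate 2 or 3 of day 0 (adjusted p = 0.0809 and 0.0608) and without replicate 1 or 2 of day 5 (adjusted p = 0.0755 and 0.0524), with the change between 1.17 and 1.37. In the DNase-treated libraries alone, Irf7 had also risen by day 1 (1.34, limma, adjusted p = 0.0184), where all libraries gave 0.72 ± 0.38 (adjusted p = 0.207).

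Bst2 (Entrez 69550, chromosome 8, 71534255 to 71537472) went the other way. It was at 16.8, 23.1 and 20.3 RPKM at day 0, at 26.7, 27.1 and 21.6 at day 1 and at 23.1, 13.4 and 22.4 at day 2. It was at 14.2, 36.3 and 19.0 at day 3, at 10.7, 16.0 and 13.2 at day 4 and at 15.4, 13.8 and 11.6 at day 5. All libraries of day 5 lay below all of days 0 and 1, and replicate 2 of day 3 was the highest of the series. Bst2 fell from 25.1 ± 3.08 RPKM (SD, n = 3) at day 1 to 13.6 ± 1.89 at day 5 (log2 change -0.84 ± 0.28, limma, adjusted p = 0.0362). Leaving out any of the 6 libraries of these days but replicate 3 of day 1 ended this call, with adjusted p = 0.0613 to 0.107 and changes of -0.93 to -0.74. Against day 0 the change was -0.53 ± 0.28 (limma, adjusted p = 0.161). Days 4 and 5 against days 2 and 3 gave -0.57 ± 0.20 (limma, adjusted p = 0.0581), and -0.65 with the mouse as a factor (adjusted p = 0.0209).

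Isg15 (Entrez 100038882, chromosome 4, 156199424 to 156200818) was close to the limit of measurement. It was at 1.88, 0.0548 and 0.403 RPKM at day 0, which stand for 72, 2 and 14 reads. It was at 0.245 to 0.834 RPKM from day 1 to day 2, 0.200 to 0.481 at day 3, 0.347 to 1.41 at day 4 and 0.677 to 1.69 at day 5. Only 3 libraries reached 1 RPKM, all replicate 1, at days 0, 4 and 5, and Isg15 was tested only through them. No comparison was called by limma with a term for day alone and equal library weights (day 5 against day 0: 0.35 ± 0.31, adjusted p = 0.394, and 0.52, adjusted p = 0.0201, with array weights). All day 5 libraries lay above all of day 1 (0.61 ± 0.31, limma, adjusted p = 0.143, and 0.80, adjusted p = 0.036, with the mouse as a factor), as was so for 5 of the 9 members in 1 direction or the other and for 52.9% of all genes.

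The interferons and their receptors frame these levels. Of 21 genes for type I, II and III interferons, 17 were at 0 in all libraries, and the highest single value was 0.0978 RPKM. The receptors were expressed. Ifngr1 had day means of 67.5 to 89.7 RPKM, Ifnar1 of 5.32 to 6.48 and Ifnlr1, the receptor chain for type III interferon, of 3.34 to 6.07, and none of these 3 passed in any of the 4 comparisons. Ifngr2, the second chain for interferon γ, rose by 0.79 ± 0.20 from day 0 to day 5 (limma, adjusted p = 0.0126), from 44.1 to 76.2 RPKM. Il10rb, a chain shared by the receptors for IL-10 and type III interferon, rose by 0.82 ± 0.19 (limma, adjusted p = 0.0106), from 19.2 to 34.7 RPKM. Of the 20 tested receptors, sensors and signalling genes, these 2 rose and Mb21d1, the DNA sensor cGAS, fell (-0.95 ± 0.28, limma, adjusted p = 0.0247). Over all tested genes 11.4% rose and 13% fell from day 0 to day 5. From day 0 to day 1, none of the 20 rose and 3 fell (9.54% and 9.05% of all genes). From day 1 to day 5, 4 rose and 1 fell (11.8% and 16.1% of all genes). Between days 0 and 5, the Ifngr2 call was lost without replicate 2 of day 0 or replicate 1 of day 5 (adjusted p = 0.0544 and 0.0507). That of Mb21d1 was lost without replicate 1 or 2 of either day (adjusted p = 0.0536 to 0.0854). In the DNase-treated libraries alone, Il10rb (0.78) and Mb21d1 (-0.96) missed the threshold (limma, adjusted p = 0.0611 and 0.0654).

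Of 55 other interferon-stimulated genes, 26 were tested, and 3 of these rose and 1 fell from day 0 to day 5, with a median of 0.25. Over all tested genes 11.4% rose and 13% fell, with a median of -0.17. Ifi35 rose by 1.39 ± 0.25 (limma, adjusted p = 0.00215), from 13.7 ± 0.710 to 37.8 ± 4.23 RPKM (SD, n = 3 each). Parp9, a partner in ubiquitin transfer, rose by 0.87 ± 0.27 (limma, adjusted p = 0.0294), and Ddx58, the RNA sensor RIG-I, by 0.63 ± 0.21 (limma, adjusted p = 0.0378). Adar, an RNA-editing enzyme, fell by 0.56 ± 0.16 (limma, log2 change -0.56, adjusted p = 0.0205). The Adar call was lost without replicate 1 or 3 of day 0 (adjusted p = 0.0577 and 0.0552), without replicate 1 of day 5 (-0.39, adjusted p = 0.105) and when only DNase-treated libraries were fitted (-0.34, adjusted p = 0.132). From day 0 to day 1, 1 gene rose (Ifi35, 0.96 ± 0.25, limma, adjusted p = 0.015) and 3 fell, Ifitm2, Samhd1 and Trim21. Over all tested genes 9.54% rose and 9.05% fell in that comparison. Without replicate 1 of day 0 and 2 other libraries that stood apart, 8 genes of the list were called between day 0 and day 5 in place of 4, and 14 with array weights. Leaving out a single library of these days gave 1 (day 0 replicate 3 or day 5 replicate 1), 2 (day 0 replicate 2, day 5 replicate 2 or 3) or 6 (day 0 replicate 1). Ddx58 and Parp9 kept their calls only without replicate 1 of day 0, among these 6 libraries, while Ifi35 kept its call in each case. The share of all genes called in these other fits is not given here, so their counts are no result about the list. The members and this list thus held genes that moved in both directions, and 22 of the 26 passed no threshold in that comparison.

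In the steps of a single day after day 1, limma called none of the 9 members. Only Tap1 from day 1 to day 2 (0.38 ± 0.17, limma, adjusted p = 1) and Bst2 from day 3 to day 4 (-0.67 ± 0.28, limma, adjusted p = 0.759) had a value under 0.05 before adjustment. Over all genes the share called was 0% from day 1 to day 2 and from day 2 to day 3, 0.036% from day 3 to day 4 and 0.189% from day 4 to day 5. The libraries did not overlap for Tap1 alone in the first and the third of these steps (6.55% and 5.11% of all genes) and for no member in the second and the fourth (1.61% and 8.21%). Weighting the libraries by their spread gave 4 calls among the members, and the share of all genes called with these weights is not given here.

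The genes most like the members over the 18 libraries were found by the correlation of log2(RPKM + 1), centred per gene, with the mean of the 6 class I members and of the 3 interferon members. These correlations share libraries and day effects and are a description. Nearest to the class I members were Apol7a (r = 0.882), Tmem8 (r = 0.871), Trim12a (r = 0.866), Trim12c (r = 0.864) and Nkiras2 (r = 0.864). Apol7a had means of 1.06 RPKM at day 0 and 5.46 at day 5. Nearest to the interferon members were Ifi27 (r = 0.902), Rras (r = 0.860), Slc6a8 (r = 0.860), Irak2 (r = 0.845) and Mmp15 (r = 0.829). Spearman's rho lay between 0.730 and 0.860 for the first 5 and between 0.649 and 0.878 for the second.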

How the data were processed

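Messenger RNA of 18 libraries was measured, 3 per day. The deposited table holds RPKM made by the authors; per the submitters' processing notes, bcl2fastq 2.17, STAR 2.5.2b and edgeR 3.20.5 were used with build mm10, with no role or setting stated, and the treatment of strand and of reads matching several genes is not given in the sources used here. Whole reads and depth were recovered from the steps of the RPKM values (43008272 to 53929907 reads per library). Genes at 1 RPKM or more in at least 3 libraries, 11111 of 24116, were tested with limma 3.58.1 in R 4.3.3 (lmFit, eBayes with a trend) on log2(RPKM + 1), 1 coefficient per day, two-sided, adjusted by Benjamini-Hochberg over all genes. All 9 members passed this filter, Isg15 through 3 libraries only. Ratios were compared with exact permutation tests (scipy 1.17.1). Promoters are the 250 bases before the RefSeq starts (GRCm38.p6). The test was tried on simulated data with known changes.

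The members and all lists were chosen with earlier results of these data known. Named genes are the members, up to 4 called genes of each list with the largest change in a comparison, partners and regulators listed by name, and the 5 genes nearest in pattern. One gene of this rule is not reported here. By the titles, replicates 1 and 3 keep to mouse 1 and mouse 3 throughout. Replicate 2 is mouse 1 on days 1 and 2 but mouse 2 otherwise, so the replicate numbers pair the samples in part. Over 45 pairs of same-numbered libraries, the correlation of their deviations from the day means ran from -0.64 to 0.81 (median 0.17), and 27 were over 0.1.

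The alternatives were another pseudocount (0.1), no filter and a filter at 5 RPKM, median-of-ratios rescaling, quantile normalization, the replicate block, the mouse as a factor, DNase-treated libraries only, array weights, only the days compared and each library left out. A fit without 3 libraries that stood apart (replicate 1 of day 0, 2 of day 3 and 3 of day 4) was chosen after seeing the data, as were the alternatives for the ratios.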

Additional observations from a re-analysis of the deposited data

How the results depend on the processing

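Median-of-ratios rescaling moved the median change of all genes between days 0 and 5 from -0.17 to -0.01, so changes are to be read against that shift. The number of members called was 3 between days (1 with median-of-ratios rescaling, 1 in the DNase-treated libraries, 6 with array weights, 1 to 4 leaving out a library). It was 2 for day 1 against day 0 (1 with a filter at 5 RPKM, with median-of-ratios rescaling or quantile normalization, with the mouse as a factor and without the 3 libraries that stood apart, 0 to 2 leaving out a library). It was 4 for day 5 against day 0 (7 with array weights, 6 with only the days compared, and 1 to 5 leaving out a library, with 1 where day 5 lacks replicate 1 and 2 where it lacks replicate 2), and 3 for day 5 against day 1 (5 with the mouse as a factor, 1 to 3 leaving out a library). For days 4 and 5 against days 2 and 3 it was 2 (1 with no filter, median-of-ratios rescaling, quantile normalization or the DNase-treated libraries, 5 with array weights, 0 with only the days compared, 0 to 4 leaving out a library). For single-day steps it was 0, and 4 with array weights. The share of all genes called in each alternative is not given here, so these counts are no result about the group. With the replicate block, the H2-K1 call between days 4 and 5 and days 2 and 3 was lost (adjusted p = 0.051), which left 1 member, and no other count of members moved by over 1.5 times. Among all results, only Lgals3bp between days 0 and 5 reversed (-0.38 with quantile normalization). The cause of these differences was not tested. Isg15, at 2 to 72 reads per library, is limited by depth.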
